A study of Caenorhabditis elegans with 12 samples.

Results

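The miR-35 family of the nematode Caenorhabditis elegans comprises 8 microRNA hairpins, cel-mir-35 to cel-mir-42, and was taken by name from a table of read counts for 250 hairpins. All 8 had reads in every library and all 8 were among the 181 hairpins with enough reads to be tested. Small RNA had been sequenced from whole hermaphrodites of the wild-type strain N2, in 12 libraries that form 4 groups of 3. Worms labelled 5 days or 15 days of age had received either DMSO at 0.1%, the solvent control, or rotenone at 100 nM for 24 hours from the L4 larval stage. Rotenone inhibits complex I of the mitochondrial respiratory chain. The labels do not say from which event the days are counted, whether eggs or progeny were kept with the adults, whether the rotenone groups also received DMSO, or whether replicates were separate cultures. P-values therefore measure the spread between these libraries, which may be technical.

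MicroRNAs are short RNAs cut from a hairpin precursor, and they repress messenger RNAs that pair with the seed near their 5′ end. The members of the miR-35 family share a seed on the 3p arm and act largely redundantly. They are abundant in oocytes and early embryos, the embryo does not develop without the whole family, and loss of the clustered members lowers the number of progeny, most severely at high temperature. Known targets include egl-1, which starts programmed cell death, and nhl-2 and sup-26, through which the family acts on sex determination. In adult hermaphrodites these hairpins serve as markers of the germline and of embryos held in the uterus.

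Of the family, mir-35 to mir-41 lay in a single row on the plus strand of chromosome II in the WBcel235 annotation, with 797 bases from the first base of mir-35 to the last of mir-41. The row begins with mir-35 (chrII:11537608-11537704), mir-36 (chrII:11537713-11537809), mir-37 (chrII:11537833-11537930) and mir-38 (chrII:11537933-11538027). It goes on with mir-39 (chrII:11538089-11538175), mir-40 (chrII:11538184-11538275) and mir-41 (chrII:11538308-11538404). The gaps between neighbours were 2 to 61 bases, the shortest between mir-37 and mir-38 and the longest between mir-38 and mir-39. All 7 lay within the protein-coding gene Y62F5A.9, which is annotated on the minus strand, and none overlapped its exons, so that their position is intronic and antisense to it. The annotated hairpins were 87 to 98 bases long, and each gives a 3p arm of 22 bases. The eighth member, mir-42 (chrII:11889811-11889905), lay 351406 bases further on, in no protein-coding gene. Its neighbour mir-43 began after a gap of 4 bases on the same strand, and mir-44 after a further gap of 15 bases. The table counts reads per hairpin, so the arms are not separated, and no source used here says how reads that match several hairpins were counted. The counts of such closely related members are uncertain to that extent.

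**Figure D1:**
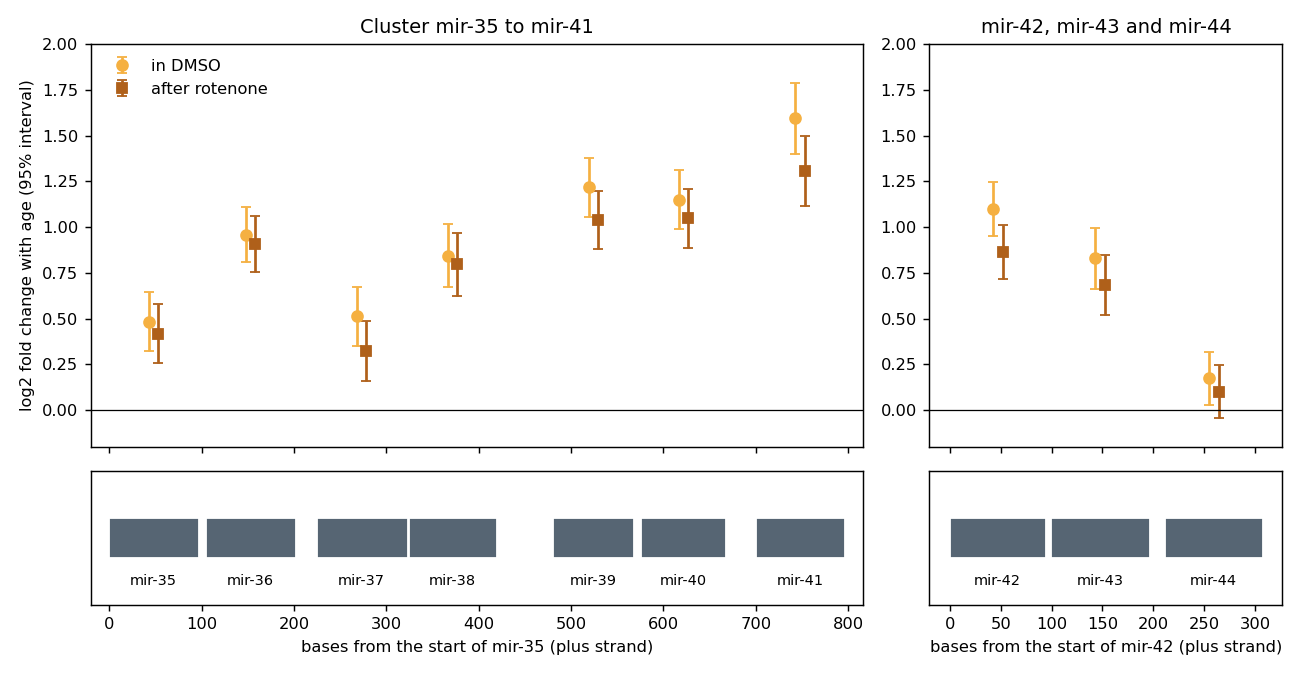
Position of the hairpins (distance along chromosome II in bases, left, from the start of mir-35; right, from the start of mir-42) and, above them, the log2 fold change from day 5 to day 15 in DMSO and after rotenone with 95% intervals. All 7 members of the row and mir-42 rose with age in both treatments, mir-35 and mir-37 least, while mir-44, next to mir-42 and mir-43, lay at 0.17 and 0.10.

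Total hairpin counts ranged from 8845726 to 11045174 in the 6 libraries of day 5 and from 4215830 to 5989717 in the 6 of day 15, so that a count of 3 corresponded to 0.272 to 0.712 CPM, the count scaled to library size. The lowest count of a member in any library was 400 reads, for mir-41. The labels carry a lane tag, L006 or L007. At either age both treatments had equal numbers of libraries in a lane, but day 5 had more libraries in L006 and day 15 more in L007. Each day 5 group had a single library in L007, and each day 15 group a single library in L006. Comparisons of ages within a lane, and of treatments in L007 at day 5 or in L006 at day 15, therefore include groups without replication. A missing call there may reflect the lost replication. Somatic tissue markers were all detected, and their levels are given with the ageing comparison. Levels are printed as CPM scaled by TMM, a scaling that assumes that most hairpins do not differ, and give no amount per worm. That assumption did not hold for age. In DMSO 80.1% of the hairpins tested differed at an adjusted p under 0.05 in edgeR's quasi-likelihood test, and 75.1% after rotenone. Higher and lower shares lay close, with 38.1% and 42.0% in DMSO and 37.6% each after rotenone. Changes with age are thus relative to the other hairpins. In whole worms, fewer cells that hold a microRNA and less of it per cell cannot be told apart.

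The family held a substantial share of all hairpin reads, and that share was higher at day 15. It was 8.59%, 9.35% and 8.16% in the 3 day 5 DMSO libraries, 10.3%, 10.2% and 10.6% after rotenone at day 5, 16.9%, 16.4% and 15.6% in DMSO at day 15, and 16.6%, 17.2% and 16.0% after rotenone at day 15. Means were 8.70% ± 0.60 (SD, n = 3), 10.4% ± 0.20, 16.3% ± 0.68 and 16.6% ± 0.62. Every day 15 library lay above every day 5 library, and the rotenone libraries lay above the DMSO libraries at day 5, while the treatments overlapped at day 15. These shares add up all members and were not tested.

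Expression was very unequal within the family. Over all 12 libraries mir-35 held a mean of 4.39% of hairpin reads, mir-39 4.33%, mir-37 1.83%, mir-40 1.51%, mir-36 0.717% and mir-38 0.186%, while mir-42 held 0.0306% and mir-41 0.0108%. Levels between members were compared per length, as CPM per 100 hairpin bases. In both day 5 groups the order was mir-35, mir-39, mir-37, mir-40, mir-36, mir-38, mir-42 and mir-41, and no pair of neighbours in that order overlapped between libraries. In DMSO at day 5 the levels per length ran from 36302 ± 4106 CPM per 100 bases for mir-35 (SD, n = 3) to 53.2 ± 3.05 for mir-41. At day 15 mir-39 stood above mir-35, with 67255 ± 2021 against 50689 ± 1429 CPM per 100 bases in DMSO and 68820 ± 7381 against 53402 ± 4148 after rotenone. The level per length of mir-35 was 1.08 to 1.44 times that of mir-39 in the 6 day 5 libraries. In the 6 day 15 libraries it was 0.662 to 0.934 times that of mir-39. By this measure the order of the leading pair differed between the ages in every library. By reads per hairpin mir-35 still led in day 15 rotenone replicate 2, where the count of mir-39 was 0.960 times that of mir-35. Per length at day 15, mir-37 and mir-40 also overlapped, mir-37 having the higher mean in DMSO and mir-40 after rotenone. The lower places were held by the same members at both ages, down to mir-41, which lies at the 3′ end of the row and had the lowest level of all 8.

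**Figure D2:**
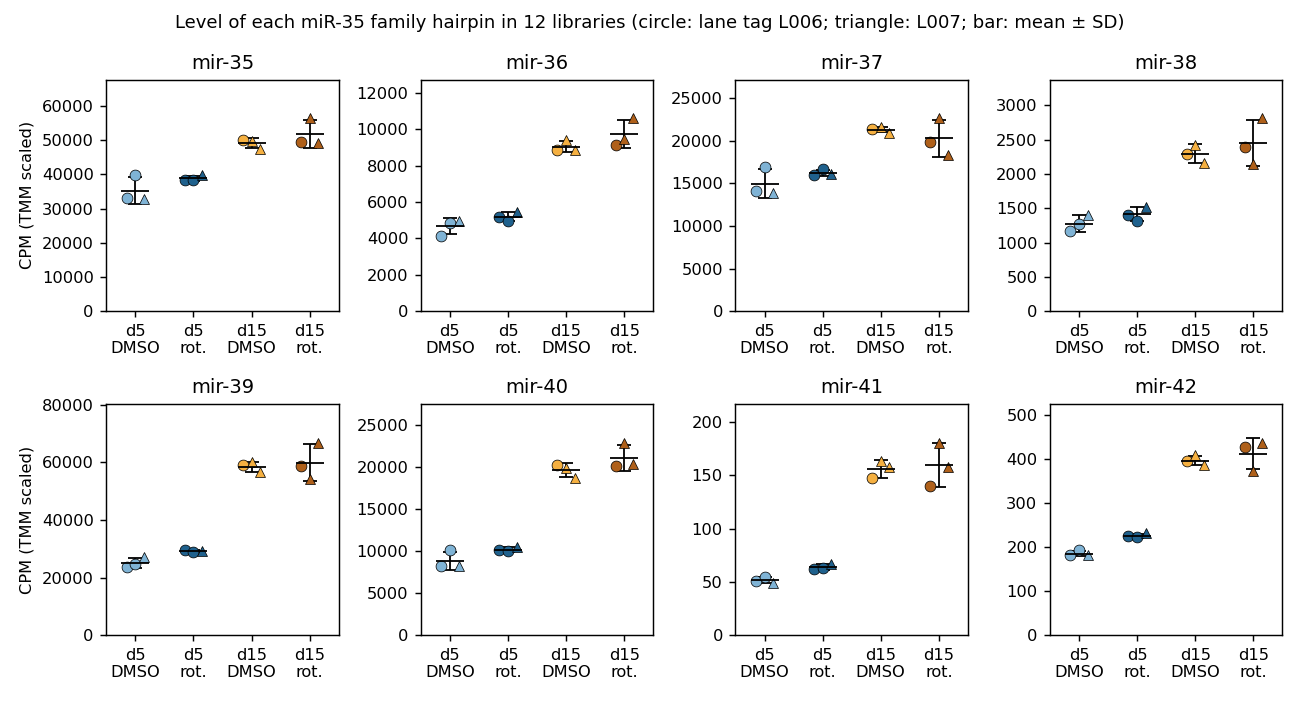
CPM (TMM scaling, linear axis from 0, own scale in each panel) of each member in all 12 libraries, with mean and SD of each group of 3 and the marker shape for the lane tag. Within each panel all 6 day 15 libraries lie above all 6 day 5 libraries, and the members span from 49.1 CPM for mir-41 to 66831 CPM for mir-39.

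The comparison of day 15 with day 5 in DMSO asks how the family differs between younger and older worms that had received the solvent alone. All 8 members rose, by 1.40-fold to 3.02-fold, and no member overlapped between the ages. Of all 181 hairpins tested, 69 (38.1%) rose at an adjusted p under 0.05 in edgeR's quasi-likelihood test, and 38.7% had all day 15 libraries above all day 5 libraries. The median log2 fold change was 1.03 for the 8 members and -0.02 for all hairpins tested.

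Among the members of the row, cel-mir-35 had 33077, 39808 and 32753 CPM at day 5 and 50007, 49931 and 47568 CPM at day 15. Its group means were 35212 ± 3983 and 49169 ± 1387 CPM (SD, n = 3 each), a rise of 0.48 ± 0.08 on the log2 scale (SE, edgeR's quasi-likelihood test, adjusted p = 3.43e-06). This most abundant member at day 5 had the smallest rise of the 8. The next in the row, cel-mir-36, had 4153, 4839 and 4971 CPM at day 5 and 8869, 9415 and 8859 CPM at day 15, and rose 1.94-fold (log2 0.96 ± 0.07). For cel-mir-37 the values were 14082, 16932 and 13870 CPM at day 5 and 21423, 21593 and 20982 CPM at day 15, a rise of 1.43-fold (log2 0.51 ± 0.08, adjusted p = 1.71e-06 by edgeR). The rises of mir-35 and mir-37 lay close to each other and below those of the hairpins on either side of mir-37.

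The hairpin cel-mir-38, which lies 2 bases after mir-37, had 1163, 1266 and 1404 CPM at day 5 and 2296, 2429 and 2153 CPM at day 15, and rose by 0.84 ± 0.08 on the log2 scale. The highly expressed cel-mir-39 had 23688, 24748 and 27129 CPM at day 5 and 59014, 59965 and 56557 CPM at day 15. Its rise was 2.32-fold, 1.22 ± 0.08 on the log2 scale (adjusted p = 7.43e-14 by edgeR). With this rise mir-39 passed mir-35 as the leading member. For cel-mir-40 the values were 8259, 10146 and 8241 CPM at day 5 and 20322, 19967 and 18773 CPM at day 15, a rise of 2.22-fold (log2 1.15 ± 0.08). The last of the row, cel-mir-41, had 50.9, 54.9 and 49.1 CPM at day 5 and 147, 164 and 157 CPM at day 15. It rose 3.02-fold (log2 1.60 ± 0.09, adjusted p = 1.33e-14 by edgeR), so the member with the lowest level had the steepest rise.

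Away from the row, cel-mir-42 had 181, 193 and 182 CPM at day 5 and 396, 408 and 386 CPM at day 15. It rose 2.14-fold (log2 1.10 ± 0.07, adjusted p = 1.10e-13 by edgeR), within the range of the clustered members. Within lane L006 the 8 log2 changes were 0.49 to 1.50 and within lane L007 0.56 to 1.70, all positive.

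After rotenone the same comparison of ages gave rises of all 8 members, by 1.25-fold to 2.47-fold, against 68 of 181 hairpins (37.6%) in all, and again no member overlapped between the ages (38.1% of all hairpins). The median log2 fold change of the members was 0.89 and that of all hairpins 0.01. In this comparison mir-35 rose from 38406, 38289 and 39755 CPM to 49612, 56443 and 49344 CPM, 1.33-fold (adjusted p = 2.68e-05 by edgeR). The smallest rise was that of mir-37, from 15937, 16647 and 16149 CPM to 19856, 22659 and 18368 CPM (1.25-fold, adjusted p = 0.000683 by edgeR). These rises were again the lowest of the family, with day 15 libraries that spread more widely than in DMSO. The levels of mir-39 went from 29563, 28769 and 29223 CPM to 58615, 54175 and 66831 CPM (2.05-fold), and those of mir-40 from 10178, 9997 and 10505 CPM to 20114, 22951 and 20364 CPM (2.07-fold). For mir-41 they went from 62.7, 62.9 and 67.4 CPM to 140, 181 and 158 CPM (2.47-fold), and for mir-42 from 225, 223 and 231 CPM to 427, 373 and 437 CPM (1.82-fold). As in DMSO, mir-41 had the highest fold. The remaining members, mir-36 and mir-38, rose 1.88-fold and 1.74-fold. Within lane L006 the log2 changes of the 8 members were 0.38 to 1.24 and within lane L007 0.28 to 1.27. Each lane held a single rotenone library at one of the ages. The ageing comparisons in DMSO and after rotenone use separate libraries, and the rotenone comparisons that follow reuse them.

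**Figure D3:**
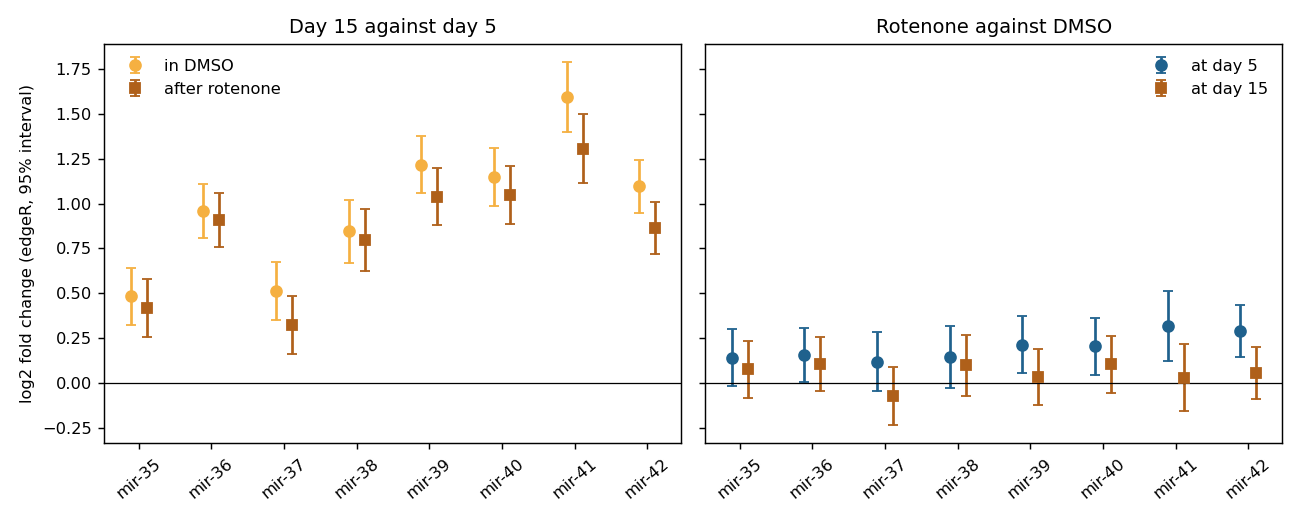
Log2 fold changes of the 8 members with 95% intervals for the comparisons of age and of rotenone. The age changes lie between 0.32 and 1.60, the rotenone changes at day 5 between 0.12 and 0.32, and those at day 15 between -0.07 and 0.11.

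The unequal rises changed the make-up of the family. Each member's count was set against the geometric mean of the other 7 in the same library, a ratio that does not depend on how libraries are scaled, and the ages were compared with a two-sided exact permutation test within treatments, for which 0.005 is the smallest p possible. Relative to the rest of the family mir-35 fell by 0.52 on the log2 scale and mir-37 fell by 0.56, while mir-39 rose by 0.25, mir-40 by 0.22 and mir-41 by 0.62. Each of these 5 had an exact permutation p = 0.005 and p = 0.008 after Benjamini-Hochberg adjustment over the 8 members. The other 3 did not pass, with 0.03 for mir-36, -0.10 for mir-38 and 0.08 for mir-42 (exact permutation tests, adjusted p = 0.5, 0.263 and 0.167). Because the members are set against one another, these 8 ratios are not independent. Without day 15 rotenone replicate 2, mir-42 also passed (0.12, adjusted p = 0.00667 by the exact permutation test). With shares of the family's reads in place of ratios, 2 of these 3, mir-36 and mir-42, passed as well. The division into members that passed and members that did not thus depended on the measure.

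As shares of the family's own reads, mir-35 went from 38.9% in DMSO at day 5 to 30.6% at day 15, and from 38.3% to 31.2% after rotenone. For mir-37 the shares went from 16.5% to 13.3% in DMSO and from 16.0% to 12.2% after rotenone. The share of mir-39 went the other way, from 28.0% to 36.4% in DMSO and from 28.8% to 36.1% after rotenone, and that of mir-40 from 9.80% to 12.3% and from 10.1% to 12.7%. The low member mir-41 made up 0.0572% of the family's reads at day 5 and 0.0973% at day 15 in DMSO.

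**Figure D4:**
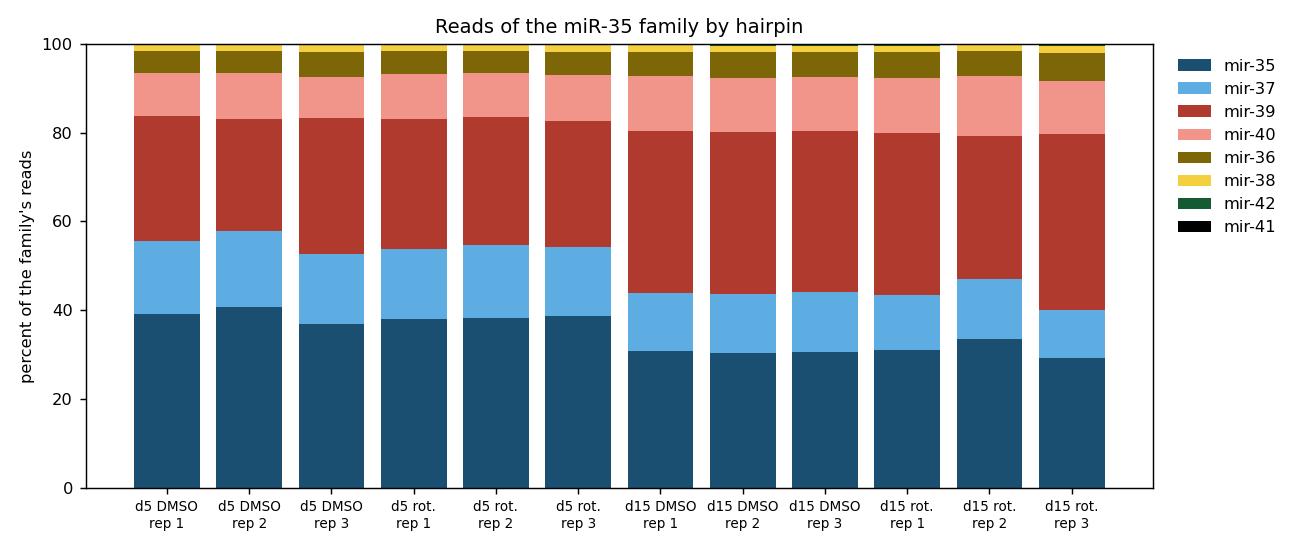
Share of the family's reads held by each member in every library (percent, stacked bars, 1 bar for each of the 12 libraries). The shares of mir-35 and mir-37 are smaller, and those of mir-39 and mir-40 larger, in all 6 day 15 libraries.

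Direct ratios of counts differed from pair to pair in their change with age and in their spread. The ratio of mir-35 to mir-40 was 4.00, 3.92 and 3.97 in DMSO at day 5 and 3.77, 3.83 and 3.78 after rotenone at day 5. At day 15 it was 2.46, 2.50 and 2.53 in DMSO and 2.47, 2.46 and 2.42 after rotenone. The ages were far apart, and at day 5 the rotenone libraries lay below the DMSO libraries. Of the 28 pairs of members this one had the lowest spread within groups, with an SD of 0.0157 on the log2 scale. The ratio of mir-35 to mir-37 stayed between 2.27 and 2.69 in all 12 libraries, with group means of 2.35 ± 0.007 (SD, n = 3) and 2.30 ± 0.03 in DMSO at day 5 and day 15 and 2.39 ± 0.08 and 2.56 ± 0.11 after rotenone. The ratio of mir-39 to mir-38 was 19.7 ± 0.55 in DMSO at day 5 and 25.5 ± 0.80 at day 15, although these hairpins lie next to each other. For mir-39 to mir-35, the leading pair, it was 0.72 ± 0.10 in DMSO at day 5 and 1.19 ± 0.01 at day 15. After rotenone it was 0.75 ± 0.02 and 1.17 ± 0.20. The spread of this pair within groups was wider, with an SD of 0.163 on the log2 scale (rank 21 of the 28 pairs from the lowest).

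The comparison of rotenone with DMSO at day 5 asks what remained in the family after the exposure during development. All 8 log2 changes were positive, from 0.12 to 0.32, and 3 members rose at an adjusted p under 0.05 in edgeR's quasi-likelihood test, namely mir-39, mir-41 and mir-42. Of all 181 hairpins, 11 (6.08%) rose in this comparison, and 79 had a positive log2 change. Members that may share reads do not give 8 separate signs. For mir-42 the DMSO libraries had 181, 193 and 182 CPM and the rotenone libraries 225, 223 and 231 CPM, a rise of 0.29 ± 0.07 on the log2 scale (SE, adjusted p = 0.00322 by edgeR). The rotenone libraries lay close together and all above the DMSO libraries. The values of mir-41 were 50.9, 54.9 and 49.1 CPM in DMSO and 62.7, 62.9 and 67.4 CPM after rotenone (log2 0.32 ± 0.09, adjusted p = 0.0137 by edgeR). Those of mir-39 were 23688, 24748 and 27129 CPM in DMSO and 29563, 28769 and 29223 CPM after rotenone (log2 0.21 ± 0.08, adjusted p = 0.0417 by edgeR). These 3 members were also the ones whose libraries did not overlap between treatments, against 12.2% of all hairpins.

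The other 5 members did not pass at day 5. In mir-35, mir-37 and mir-40 the second DMSO library stood above the others, with 39808, 16932 and 10146 CPM, and lay within or above the range of the rotenone libraries. Their log2 changes were 0.14, 0.12 and 0.20 (adjusted p = 0.189, 0.282 and 0.0528 by edgeR). The changes of mir-36 and mir-38 were 0.16 and 0.15 (adjusted p = 0.115 and 0.206 by edgeR), and their 95% intervals ran from 0.01 to 0.31 and from -0.03 to 0.32. Calls in this comparison depended on the scaling and on single libraries. Without day 5 rotenone replicate 3 mir-41 did not pass (0.28, adjusted p = 0.0553 by edgeR), leaving 1 member, and mir-39 did not pass without any 1 of the 3 day 5 rotenone libraries or of DMSO replicates 1 and 2 (adjusted p = 0.0761 to 0.179). Without day 5 DMSO replicate 2, day 15 rotenone replicate 1 or day 15 rotenone replicate 3, 5 members passed. All 8 log2 changes were positive in lane L006 (0.12 to 0.32) and in lane L007 (0.14 to 0.49). Lane L007 held a single library of each treatment at day 5. Other scalings moved the median of all hairpins from -0.04 to as much as 0.08. The median of the family lay 0.22 above the median of all hairpins, a difference that rescaling leaves nearly fixed by construction, and 0.19 to 0.33 above it over 13 settings of scaling, filter, tool and lane.

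At day 15 no member passed in the comparison of rotenone with DMSO. The log2 changes ran from -0.07 for mir-37 to 0.11 for mir-36, all with an adjusted p of 0.968 in edgeR's quasi-likelihood test, and all 8 members overlapped between treatments, while of all hairpins 3.87% were without overlap and higher and 2.21% without overlap and lower. No hairpin of the 181 was called (0.0%), with 3 (1.66%) at an unadjusted p under 0.05 and 0 called by DESeq2 or limma-voom. The 95% interval was -0.09 to 0.20 for mir-42 and -0.23 to 0.09 for mir-37. Within lanes the 8 values were 0.005 to 0.22 in L006 and -0.07 to 0.14 in L007.

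The difference between the rotenone effects at the ages was tested directly as an interaction. It was negative for all 8 members, from -0.29 for mir-41 (adjusted p = 0.166 by edgeR) to -0.05 for mir-38, and 0 passed, against 12 of 181 hairpins (6.63%). Of the 181 hairpins 107 had a positive value. At an unadjusted p under 0.05 there were 2 members, mir-41 and mir-42, and 45 hairpins (24.9%) in all. With the other tools 1 member passed in DESeq2 and 0 in limma-voom. For mir-42 the value was -0.23 (95% interval -0.44 to -0.03, adjusted p = 0.136 by edgeR). Without day 15 rotenone replicate 2 mir-41 passed (-0.41, adjusted p = 0.0397 by edgeR). The smaller change at day 15 was therefore not established as a difference for any member. Relative to one another no member passed for rotenone either, with the difference averaged over the ages. The log2 ratios differed by -0.12 for mir-37 to 0.05 for mir-41 (exact permutation tests, p = 0.105 for mir-37, adjusted p = 0.84 to 0.94 over the 8). Without day 15 rotenone replicate 2 the ratio of mir-42 passed (0.10, adjusted p = 0.04 by the exact permutation test). At day 5 alone the differences ran from -0.09 for mir-37 to 0.13 for mir-41, with 0.10 for mir-42. For mir-41 and mir-42 every day 5 rotenone library had a higher ratio than every DMSO library. At day 15 these members had -0.03 and 0.003. The ratios were not tested at single ages, so a shift at day 5 alone is not excluded.

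Within groups the members did not all vary together. In day 15 rotenone replicate 2, mir-35, mir-37, mir-40 and mir-41 lay 0.12 to 0.19 above their group means on the log2 scale, while mir-36, mir-38, mir-39 and mir-42 lay 0.04 to 0.18 below theirs. In replicate 3 of that group the first 4 lay 0.01 to 0.14 below and the other 4 lay 0.09 to 0.21 above. In day 5 DMSO replicate 3 the first 4 lay 0.07 to 0.10 below their means and mir-36, mir-38 and mir-39 lay 0.10 to 0.14 above theirs, while mir-42 lay 0.02 below its mean, on the side of the first 4. All 3 of these libraries carry lane tag L007, and the part of the lane was not tested. The mean deviations of the 4 and 4 members had opposite signs in 3 of 12 libraries. The within-group SD of the log2 ratio was 0.0157 to 0.0995 for the 6 pairs among the first 4, 0.0614 to 0.0996 for the 6 pairs among the others, and 0.128 to 0.218 for the 16 pairs between them. This division was chosen after the values were seen and was not tested. It does not follow the order along the chromosome, since mir-36, mir-38 and mir-39 lie between the others and mir-42 lies apart.

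**Figure D5:**
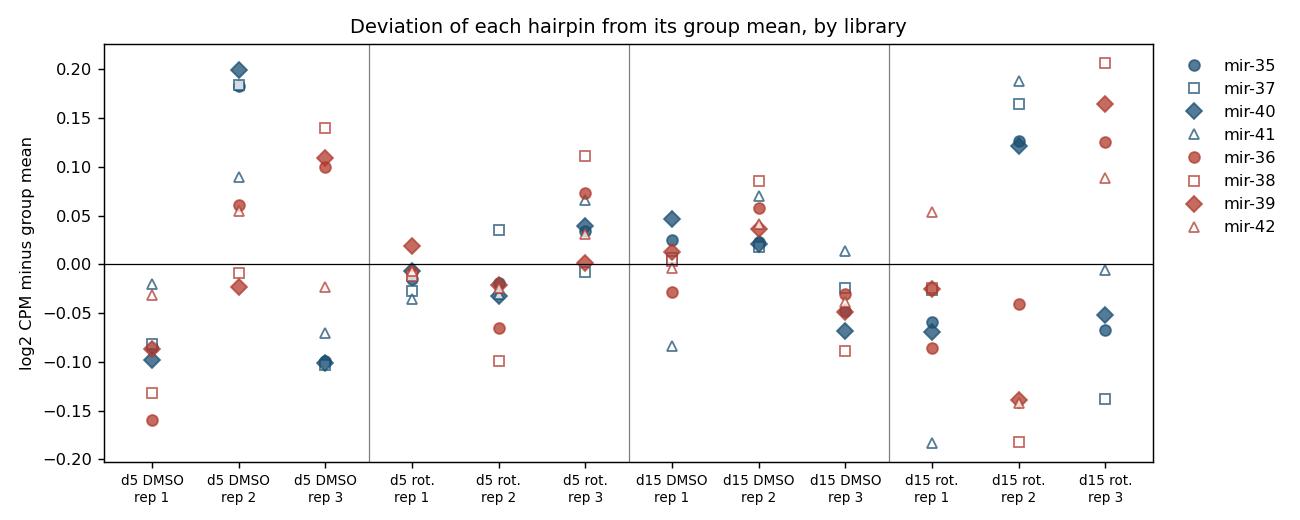
Deviation of each member from its group mean (log2) in all 12 libraries. In day 15 rotenone replicates 2 and 3 the members mir-35, mir-37, mir-40 and mir-41 deviate in one direction and mir-36, mir-38, mir-39 and mir-42 in the other.

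The neighbours of mir-42 did not behave alike. The adjoining mir-43, a member of the miR-2 family, rose with age by 0.83 ± 0.08 on the log2 scale in DMSO and by 0.68 ± 0.08 after rotenone, whereas mir-44, the next hairpin on the same strand, rose by 0.17 ± 0.07 in DMSO (adjusted p = 0.0292 by edgeR) and did not pass after rotenone (0.10 ± 0.07, adjusted p = 0.198), although it did with TMM computed without the family (0.17, adjusted p = 0.0495 by edgeR). The call of mir-44 in DMSO ended without day 5 DMSO replicate 1 or day 15 DMSO replicate 2 or 3 (adjusted p = 0.0576 to 0.109 by edgeR) and in lane L007 alone (0.17, adjusted p = 0.237). The counts of mir-44 and of mir-45, a hairpin on the other strand, never differed by more than 0.529% within a library and make up 1 uncertain measurement. The count of mir-42 relative to that of mir-44 was 0.00571 ± 0.00011 (SD, n = 3) in DMSO at day 5 and 0.0108 ± 0.0002 at day 15, and relative to mir-43 it was 1.37 ± 0.05 and 1.66 ± 0.15. The hairpins within 10 kb of mir-42 thus included 1 whose log2 changes with age lay within the range of the family and others whose changes lay below it.

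The hairpins outside the family with the most similar pattern were found by the root mean square difference, over the 12 libraries, between a hairpin's centred log2 CPM and the mean of the 8 members. Of 123 such hairpins (mean level 10 CPM or more), mir-43 was the closest (0.103), followed by mir-2209a (0.116), mir-239b (0.128), mir-61 (0.129) and mir-1829b (0.136). The median over the 123 was 0.586, and the members themselves lay at 0.058 for mir-36 to 0.282 for mir-41. With age mir-2209a rose by 0.98 in DMSO and 0.81 after rotenone on the log2 scale, mir-61 by 0.81 and 0.58, and mir-1829b by 0.89 and 0.54. At day 5 mir-61 and mir-1829b were higher after rotenone, by 0.21 and 0.29 (adjusted p = 0.0192 and 0.00431 by edgeR), and the call of mir-61 ended without DMSO replicate 1 or 2 or rotenone replicate 1 or 2 (adjusted p = 0.0503 to 0.0795 by edgeR). For mir-239b, which belongs to the stress-linked miR-238 family, the ageing changes were 0.80 and 0.97 and the rotenone change was -0.10 (adjusted p = 0.288 by edgeR). The measure is a description of 12 libraries in which age accounts for the largest differences. The 5 hairpins were picked for their likeness in these same libraries. Their changes and p-values are therefore partly fixed by that choice and lend the family's pattern no separate support.

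The miR-51 family, the other microRNA family that the embryo needs, moved less. Of its 6 members, 5 rose with age in DMSO and 4 after rotenone, where 38.1% and 37.6% of all hairpins rose. Their median log2 change was 0.27 in both, against 1.03 and 0.89 for the miR-35 family. With rotenone 1 of 6 rose at day 5, where 6.08% of all hairpins rose, and 0 at day 15. The member called at day 5 was mir-51, by 0.19 (adjusted p = 0.0417 by edgeR). The call of mir-51 ended without day 5 DMSO replicate 3 or any 1 of the day 5 rotenone libraries (adjusted p = 0.0633 to 0.19 by edgeR) and in lane L007 alone. Over all settings 0 to 4 members rose with rotenone at day 5, 5 to 6 with age in DMSO and 2 to 6 with age after rotenone.

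Somatic tissue markers moved with age as well. Of 7 markers, namely mir-1 of muscle, mir-60 of intestine, lsy-6, mir-124 and mir-791 of neurons, mir-228 of glia and mir-246 of the gonadal sheath, 6 fell with age in both treatments and mir-246 rose, against 42.0% of all hairpins lower in DMSO and 37.6% after rotenone. At day 5, where 19.3% of all hairpins fell, rotenone went with lower levels of mir-1 (-0.24, adjusted p = 0.0435 by edgeR) and mir-60 (-0.22, adjusted p = 0.0193), and at day 15 no marker was called. Of the left-out libraries, the call of mir-1 outlasted day 5 DMSO replicate 1 and day 5 rotenone replicate 3, that of mir-60 these and day 5 DMSO replicate 2, and both ended without any other library. Both also ended by library size alone (-0.15 and -0.13, adjusted p = 0.256 and 0.19 by edgeR). The same held without a filter, with a filter of 10 CPM, with only the groups compared and with TMM computed without the family. Both ended too once the 3 hairpins with most reads were dropped. There, and with the 10 CPM filter, 1 marker was called higher. With RLE scaling or DESeq2 mir-1 was not called and 1 marker stayed lower. With a lane term or limma-voom 2 markers stayed lower. With age 5 or 6 markers fell and 1 rose in every setting tried. The 7 markers together held 4.49% to 5.52% of hairpin reads in DMSO at day 5, 4.84% to 5.68% after rotenone at day 5, 5.72% to 6.51% in DMSO at day 15 and 5.51% to 6.38% after rotenone at day 15. Without the abundant mir-228 and mir-246 these ranges were 0.278% to 0.301%, 0.251% to 0.288%, 0.128% to 0.138% and 0.120% to 0.134%, and none was at 0. The summed share of all 7 markers was thus higher at day 15 in DMSO and overlapped between the ages after rotenone. Only without mir-228 and mir-246 was it lower in the older worms. The share of the miR-35 family was higher, and the part of the markers in the result was not tested.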

How the data were processed

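Small RNA libraries had been made with a TruSeq kit, per the labels' protocols. The deposited values are whole-number read counts per hairpin, not normalized by the authors. Tools listed in the submitters' processing notes are BWA 0.7.12-r1039, SAMtools 1.3.1-9, Trimmomatic 0.36 and bcl2fastq 1.8.4. Build and counting rule are not given in the sources. Positions were looked up by name in the WBcel235 annotation.

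Counts were compared in edgeR 4.0.16 (R 4.3.3) with TMM scaling, filterByExpr at a minimum count of 10, 4 group means over 12 libraries with 8 residual degrees of freedom, and Benjamini-Hochberg adjustment over 181 hairpins. A call is an adjusted p under 0.05. An SE is the log2 change divided by the square root of F. The code was tested on simulated data. Replicates are numbered in order of deposit, and the chi-square between libraries of a group, per degree of freedom, was 28.3 to 419, far above that of sampling, so none was a copy. Alternatives were other scalings, filters, DESeq2 1.42.0, limma-voom (limma 3.58.1), lanes and left-out libraries. Named hairpins are all members, the 5 with the most similar pattern, mir-43 and mir-44, and called list members. Members and lists were chosen with earlier results of these data known.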

Additional observations from a re-analysis of the deposited data

Results flagged for a closer look

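One hairpin named for its likeness to the family differed between the ages in its response to rotenone. For mir-1829b the rotenone effect at day 15 minus that at day 5 was -0.36 on the log2 scale (adjusted p = 0.0328 by edgeR's quasi-likelihood interaction test). Its group means were 173 ± 6.43 CPM in DMSO and 211 ± 15.6 CPM after rotenone at day 5 (SD, n = 3 each), and 321 ± 21.0 and 306 ± 6.20 CPM at day 15. The call ended without day 5 rotenone replicate 1 or 2 (adjusted p = 0.0747 and 0.103 by edgeR) and within lane L007 (adjusted p = 0.423). No member of the miR-35 family was marked by the same criterion.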

How the results depend on the processing

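All 8 members passed as higher with age in DMSO under every alternative. After rotenone they did so under every one except lane L007 alone, where mir-37 did not pass (0.28, with a single day 5 rotenone library). At day 5 the count of members that passed with rotenone, 3, was 5 with RLE, 6 by library size alone and 5 with TMM computed without the family. It was 8 when the 3 most abundant hairpins were left out (the top 3), 7 without a filter and 8 with a filter of 10 CPM. It was 6 with DESeq2, 6 with only the groups compared and 1 to 5 with single libraries left out. Counts for the single lanes are not listed with these, since each lane leaves some groups with 1 library. There the 8 log2 changes were 0.12 to 0.32 in L006 and 0.14 to 0.49 in L007. Higher calls over all hairpins moved as well, from 11 of 181 to 29 of 177 with the top 3 left out, 23 of 238 without a filter and 43 of 131 with the 10 CPM filter. The median log2 change of all hairpins was -0.04 in the main fit and 0.08, 0.05 and 0.12 in these settings. In these settings both the member counts and the median of all hairpins were higher than in the main fit. With DESeq2 that median was -0.006. With the 10 CPM filter the family's median lay 0.27 above that of all hairpins, against 0.22 in the main fit. Only in lane L007, with a single library of each treatment at day 5, did mir-42 fail to pass (0.38). For the interaction the count, 0, was 1 with DESeq2 and by library size alone, 2 with the top 3 left out, 5 with the 10 CPM filter and 0 to 1 with single libraries left out, which was also the range for the ratios within the family under rotenone. Causes were not tested.

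Over all hairpins, the 11 higher and 35 lower calls of rotenone at day 5 became 17 higher with RLE, 23 and 17 by library size alone, 29 and 14 with the top 3 left out, 23 and 18 without a filter, 43 and 5 with the 10 CPM filter, 18 higher with DESeq2, 21 higher with only the groups compared, 26 higher in lane L006, 0 and 1 in lane L007, and 23 lower with TMM computed without the family. Higher calls were 7 without day 5 rotenone replicate 2, and 18 and 19 without day 15 rotenone replicates 1 and 3. The 9 positive and 3 negative interactions became 24 and 5 with a lane term, 33 and 5 in lane L006, 0 and 0 in lane L007, 4 and 7 by library size, 3 and 10 with the top 3 left out, 3 and 5 without a filter, 3 and 19 with the 10 CPM filter, and 7 negative with DESeq2. They were 14 and 5 without day 5 DMSO replicate 3, 5 positive without day 15 DMSO replicate 3, 4 positive without day 15 rotenone replicate 3 and 0 negative without day 5 rotenone replicate 2. In lane L006 3 hairpins were higher after rotenone at day 15.

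With the top 3 not counted in the total, the family held 13.5%, 15.8%, 24.6% and 25.0% of reads in the 4 groups. By reads per hairpin in place of reads per base, mir-35 and mir-39 exchanged places over all libraries, so 2 members stood elsewhere in the order.

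Values that changed sign had not passed in either setting. As shares of the family's reads in place of ratios, mir-38 differed by 0.048 percentage points with age, and with rotenone mir-35 by 0.0072, mir-38 by 0.014 and mir-39 by 0.25. Lane L006 alone gave mir-37 0.0048 with rotenone at day 15, and mir-239b had 0.022 and 0.10 at day 5 with the top 3 left out and with the 10 CPM filter. With single libraries left out, the rotenone change at day 15 ranged from -0.011 to 0.21 for mir-38, -0.051 to 0.12 for mir-39 and -0.051 to 0.14 for mir-41, the ageing change of mir-44 after rotenone from -0.013 to 0.13, and the interaction from -0.16 to 0.016 for mir-36 and -0.21 to 0.013 for mir-38. The log2 ratios under rotenone ranged from -0.051 to 0.013 for mir-35, -0.018 to 0.037 for mir-36, -0.055 to 0.048 for mir-38 and -0.040 to 0.039 for mir-39. No paired analysis was possible because the labels give no replicate numbers that groups share.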
